A study of Mus musculus with 2 samples.

Results

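The calmodulins Calm2 and Calm3, the CaM kinase II genes Camk2a, Camk2b, Camk2d and Camk2g, the calcineurin catalytic subunits Ppp3ca and Ppp3cb, and the calcineurin regulator Rcan1 were examined in mouse heart. The genes were chosen by symbol, as the gene and transcript features whose Ensembl identifiers carry these names. All 9 were found among 43346 Ensembl genes. The material was poly(A) RNA from the heart of a single female adult C57BL/6J mouse aged 10 weeks, with no treatment named in the labels. It was sequenced in 2 libraries, technical replicate 2 and technical replicate 1 of that animal, and replicate 2 was made at a later date. There is no second condition and no second animal. The spread between the libraries is therefore technical, and the values describe this heart alone.

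Calmodulin is a small calcium sensor that binds calcium when it rises during each beat and then switches on other enzymes. One target is CaM kinase II, a multi-subunit kinase that phosphorylates calcium channels and calcium-handling proteins and keeps part of its activity after the calcium signal has passed. Another is calcineurin, a phosphatase with a catalytic and a regulatory subunit, which removes phosphate from NFAT transcription factors and is known for its role in growth of the heart muscle. RCAN proteins bind calcineurin and restrain it, and a short Rcan1 transcript is itself a known calcineurin and NFAT target.

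The 2 libraries were not alike. Replicate 2 held 19685821 estimated counts and replicate 1 held 22775991, and nuclear genes took 64.3% of these in replicate 2 against 22.1% in replicate 1, with mitochondrial genes and their near-identical nuclear copies taking the rest. Levels are therefore given as nuclear TPM, that is, TPM (transcript abundance per length, scaled to a fixed total) rescaled to that same total without the mitochondrial features, unless plain TPM is named. The cardiomyocyte markers fixed for the check (Myh6, Actc1, Tnnt2, Myl2, Ryr2 and Pln) were all present in both libraries. Their sum was 69245 nuclear TPM in replicate 2 and 42801 in replicate 1, but they moved in opposite directions. Pln stood at 6039 in replicate 2 and 29345 in replicate 1, and Ryr2 at 279.9 and 357. The others were lower in replicate 1: Myl2 at 25854 and 7563, and Tnnt2 at 15545 and 1660. Actc1 stood at 10803 in replicate 2 and 3326 in replicate 1, and Myh6 at 10724 and 550.0. The replicate 1 sum thus rests mainly on Pln. Counting intervals below are exact binomial 95% intervals and cover counting error only. In whole tissue, fewer cells of a type and less RNA per cell cannot be told apart.

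Calm2 was the most abundant of the 9 genes in both libraries. The calmodulin genes were Calm2 (ENSMUSG00000036438, chr17:87433412-87446935, minus strand) and Calm3 (ENSMUSG00000019370, chr7:16915379-16924114, minus strand), on GRCm38 with GENCODE M21 borders, which are used throughout. Calm2 reached 213 nuclear TPM in replicate 2 and 619.9 in replicate 1, from 1619 and 1472 counts. Calm3 reached 115 nuclear TPM in replicate 2 and 22.9 in replicate 1, from 1820 and 52.0 counts. Calm2 was thus the higher of the pair per length in both libraries, although in replicate 2 Calm3 had more counts. The Calm2 to Calm3 ratio per effective length was 1.86 (interval 1.74 to 1.99) in replicate 2 and 27.1 (20.6 to 36.5) in replicate 1, so its size differed far beyond counting error. Its direction was the same in both as deposited but turned, to 0.515, when replicate 1 was adjusted for GC content (a step given with the library ratios), where Calm3 rests on its 52.0 counts. Calm2 carried 65.1% of the summed TPM of both genes in replicate 2 and 96.4% in replicate 1 (mean share 80.8% ± 22.2, SD, n = 2).

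Calm2 and Calm3 encode the same protein from different nucleotides. Over the 447 coding bases, 78 bases and 76 of 149 codons differed, and 0 amino acids differed after translation (82.6% base identity). The longest stretch without a difference was 17 bases. The coding bases were richer in G and C in Calm3 (52.1%) than in Calm2 (45.6%). The first 60 coding bases of each, read 5′ to 3′ from the GENCODE M21 transcripts on GRCm38, are shown because they make this visible; capitals mark the 8 bases that differ. The Calm2 stretch lies in exons between chr17:87435909-87446795 and the Calm3 stretch in exons between chr7:16917703-16923843, both on the minus strand.
Calm2: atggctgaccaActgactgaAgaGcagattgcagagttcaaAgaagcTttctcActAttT
Calm3: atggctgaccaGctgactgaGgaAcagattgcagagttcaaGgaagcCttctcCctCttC

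Transcript use was simple for Calm2 and not for Calm3. Calm2-201, which codes for the full protein, carried 97.1% of the gene's TPM in replicate 2 and 98.9% in replicate 1. Calm3-201, the full-length coding transcript, carried 100% in replicate 2 and 31.9% in replicate 1. In replicate 1 the short nonsense-mediated decay transcript Calm3-202 was given 60% from 14.8 counts, and the non-coding Calm3-204 was given 8.14% from 1.29 counts. Calm3-202 and Calm3-204 had no counts in replicate 2. This also set the gene's effective length, 2102 bases in replicate 2 and 971 bases in replicate 1, which enters the Calm3 levels above. Annotated near-copies of Calm2 were given no counts: Gm15720 (98.2% identical over 276 bases) and Gm7308 (96.9% over 447 bases) had 0 in both libraries. Because sequence is shared, these 0 values are estimates and do not show that no reads came from the copies. A near-copy of Calm3, Gm5881 (96.2% over 367 bases), had no deposited values, so its reads are unknown.

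**Figure D1:**
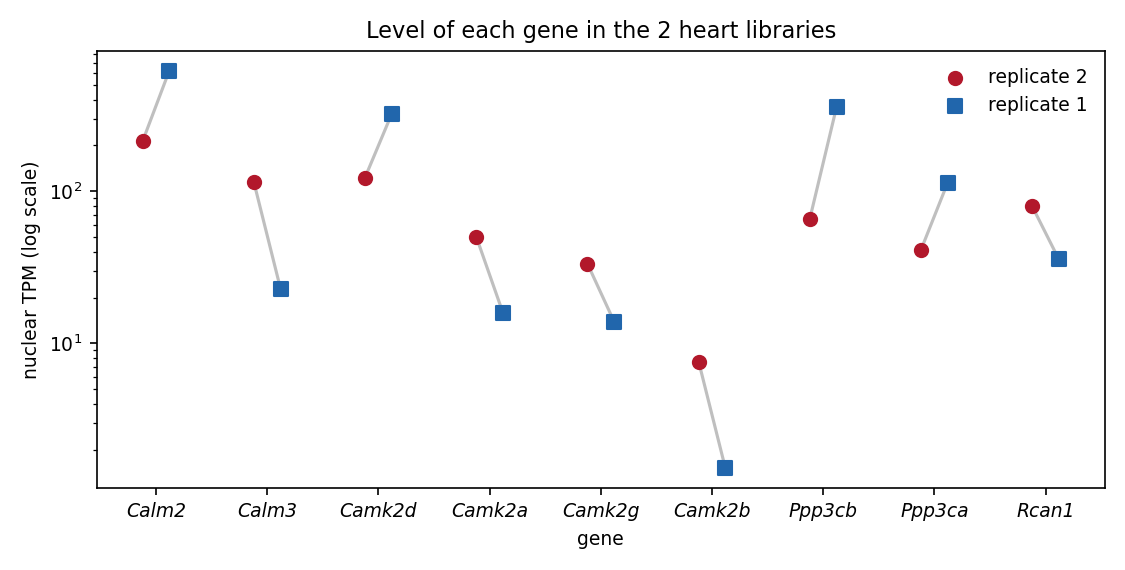
Nuclear TPM (log scale) of each of the 9 genes in replicate 2 (red circles, left of each pair) and replicate 1 (blue squares); each point is 1 library and the grey line joins the libraries. Calm2, Camk2d, Ppp3cb and Ppp3ca sit lower in replicate 2 than in replicate 1, and the other 5 genes sit higher in replicate 2.

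Camk2d, which encodes the delta subunit known as the main cardiac form, led the kinase family in both libraries. The kinase genes were Camk2d (ENSMUSG00000053819, chr3:126596302-126846326, plus strand), Camk2a (ENSMUSG00000024617, chr18:60925618-60988152, plus strand), Camk2g (ENSMUSG00000021820, chr14:20734875-20794088, minus strand) and Camk2b (ENSMUSG00000057897, chr11:5969644-6066362, minus strand). Camk2d reached 123 nuclear TPM in replicate 2 and 322 in replicate 1. Camk2a, the alpha gene best known from neurons, reached 50.3 nuclear TPM in replicate 2 and 15.9 in replicate 1. Camk2g, the widely expressed gamma gene, reached 33.4 nuclear TPM in replicate 2 and 13.9 in replicate 1. Camk2b, the beta gene known from brain and skeletal muscle, was the lowest, at 7.60 nuclear TPM in replicate 2 and 1.52 in replicate 1. The order by gene total, Camk2d, Camk2a, Camk2g and Camk2b, was the same in both libraries.

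The distance between Camk2d and the rest was not the same. Camk2d carried 57.4% of the family's summed TPM in replicate 2 and 91.1% in replicate 1 (mean 74.3% ± 23.9, SD, n = 2). Camk2a carried 23.5% in replicate 2 and 4.51% in replicate 1, and Camk2g carried 15.6% and 3.92%. Camk2b carried 3.55% in replicate 2 and 0.431% in replicate 1, where it rested on 14 counts. Camk2d exceeded Camk2a per effective length by a ratio of 2.44 (interval 2.27 to 2.63) in replicate 2 and 20.2 (17.2 to 24.0) in replicate 1. The neighbours Camk2a and Camk2g were separated beyond counting error in replicate 2, with a ratio of 1.5 (1.37 to 1.65). They were not separated in replicate 1, with a ratio of 1.15 (0.890 to 1.48). Camk2g exceeded Camk2b by 4.4 (3.73 to 5.22) in replicate 2 and 8.91 (5.09 to 16.8) in replicate 1.

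**Figure D2:**
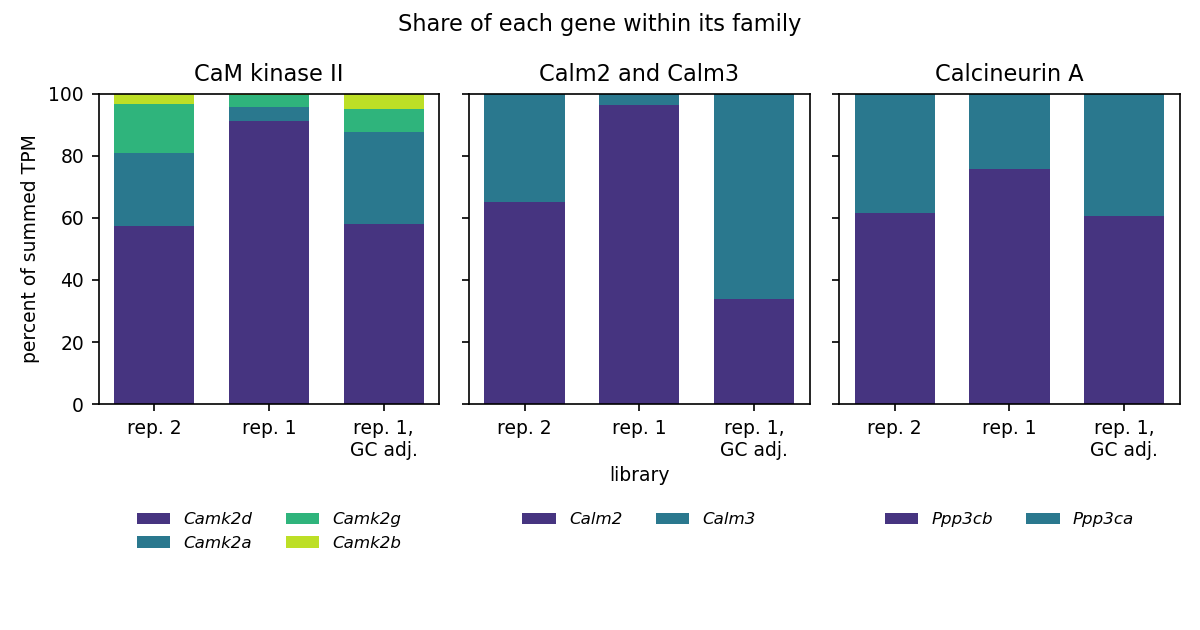
Percent of summed TPM carried by each gene within CaM kinase II (left), Calm2 and Calm3 (middle) and the calcineurin catalytic pair (right); bars are replicate 2, replicate 1, and replicate 1 after adjustment to the GC profile of replicate 2. Camk2d takes the largest share of the kinase family in all 3 bars (57.4%, 91.1% and 57.9%), while Calm2 takes 65.1%, 96.4% and 34.0% of the calmodulin pair.

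Part of the Camk2a level came from transcripts that lack the gene's first start codon. Camk2a-204 and Camk2a-202 start inside the gene, with Camk2a-204 starting 37936 bases downstream of the start of Camk2a-203. Each shares 4 exons with Camk2a-203, and they code for 200 and 189 codons, against 478 for the kinase. An internally started Camk2a product that lacks the kinase domain, alphaKAP, is known from muscle, where it anchors the kinase to membranes. Camk2a-204 carried 47.5% of the gene's TPM in replicate 2 and 18.9% in replicate 1, from 143 and 5.58 counts. Camk2a-202 carried 9.50% in replicate 2 and 0% in replicate 1. Camk2a-203, the full kinase transcript, carried 43.0% in replicate 2 and 81.1% in replicate 1. Whether the 2 short transcripts are the alphaKAP messenger RNA was not tested.

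Counting only transcripts that hold the gene's first start codon, a choice made after these values were seen, put Camk2g above Camk2a in replicate 2. Camk2g then stood at 13.1 TPM in replicate 2 and 1.00 in replicate 1, and Camk2a at 8.45 TPM in replicate 2 and 0.930 in replicate 1. The replicate 1 values were close and rested on 111 and 144 counts. No counting interval or GC adjustment was computed for this order. Camk2g took 22.8% of the family on this count in replicate 2 and 4.59% in replicate 1, and Camk2a took 14.7% and 4.26%. Camk2d was little affected, with 58.9% in replicate 2 and 90.6% in replicate 1.

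Camk2a and Camk2b are known as brain genes, so neuron and glial markers are given beside them. Th and Dbh, enzymes of noradrenaline synthesis, stood at 0.486 and 2.86 nuclear TPM in replicate 2 and at 0 in replicate 1. The neuronal tubulin Tubb3 stood at 1.10 in replicate 2 and 0 in replicate 1, and the neuronal RNA-binding gene Elavl4 at 0.0256 and 0.277. The glial gene S100b stood at 2.35 nuclear TPM in replicate 2 and 0.277 in replicate 1. Skeletal muscle markers summed to 36.9 nuclear TPM in replicate 2 and 11.4 in replicate 1, with 2 of 5 reaching 1 in both and Myh4, the fast myosin, at 0 counts in both. Smooth muscle markers summed to 638 nuclear TPM in replicate 2 and 63.0 in replicate 1, with 4 of 5 reaching 1 in both. Their part in the Camk2a and Camk2b levels was not tested.

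Camk2d transcripts differ mainly in a variable region behind the regulatory domain, where 3 short exons can be joined between the same pair of flanking exons. The 33-base exon carries the nuclear localisation signal of the form delta-B. The 42-base exon alone gives delta-9, the 60-base and 42-base exons together give delta-A, and none of them gives delta-C, known as the cytosolic form. The exons are printed because the transcript shares turn on them. They are on the plus strand at chr3:126802937-126802969, chr3:126805857-126805916 and chr3:126808208-126808249 (GRCm38, GENCODE M21 transcripts). Capitals mark the exon, and lower case marks the bases joined to it in an annotated transcript.
Camk2d 33-base exon: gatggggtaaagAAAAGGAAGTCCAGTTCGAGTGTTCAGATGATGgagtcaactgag
Camk2d 60-base exon: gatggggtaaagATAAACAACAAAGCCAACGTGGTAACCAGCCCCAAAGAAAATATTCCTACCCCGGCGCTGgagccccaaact
Camk2d 42-base exon: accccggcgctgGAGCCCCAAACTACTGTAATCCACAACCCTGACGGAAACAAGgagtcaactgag

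Transcripts with the 42-base exon alone were the largest class in both libraries. This class is 1 transcript, Camk2d-202, with 492 codons, and it carried 44.8% of the gene's TPM in replicate 2 and 72.7% in replicate 1 (mean share 58.7% ± 19.7, SD, n = 2). Over the 15 transcripts that span the region, which held 98.4% of the gene's TPM in replicate 2 and 97.8% in replicate 1, it carried 45.5% and 74.3%. The class with both the 60-base and 42-base exons carried 22.6% of this TPM in replicate 2 and 10.4% in replicate 1. Its main transcripts were Camk2d-206, with 11.1% of the gene's TPM in replicate 2 and 7.75% in replicate 1, and Camk2d-203, with 10.9% and 2.40%. The 8 transcripts with none of the exons, the delta-C pattern, carried 4.23% in replicate 2 and 2.37% in replicate 1.

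The class with the 33-base exon was large in TPM and small in reads. Its share of the spanning TPM was 21.6% in replicate 2 and 12.9% in replicate 1. Its share of the spanning counts was 1.70% in replicate 2 and 0.780% in replicate 1. Its counts belonged to Camk2d-218, a short non-coding retained-intron transcript with 40 counts in replicate 2 and 19.4 in replicate 1. Camk2d-218 is 389 bases long in the deposited tables and 591 in M21. Per-length values are sensitive to few reads on a transcript of this length. Camk2d-217, another short retained-intron transcript and the single one with the 60-base exon alone, carried 5.88% of the gene's TPM in replicate 2 and 0% in replicate 1. By counts, the 42-base class held 69.2% in replicate 2 and 86.7% in replicate 1, and the class with the 60-base and 42-base exons held 23.6% and 10.4%. No annotated full-length transcript in these tables with a share of 5% or more carried the 33-base exon.

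**Figure D3:**
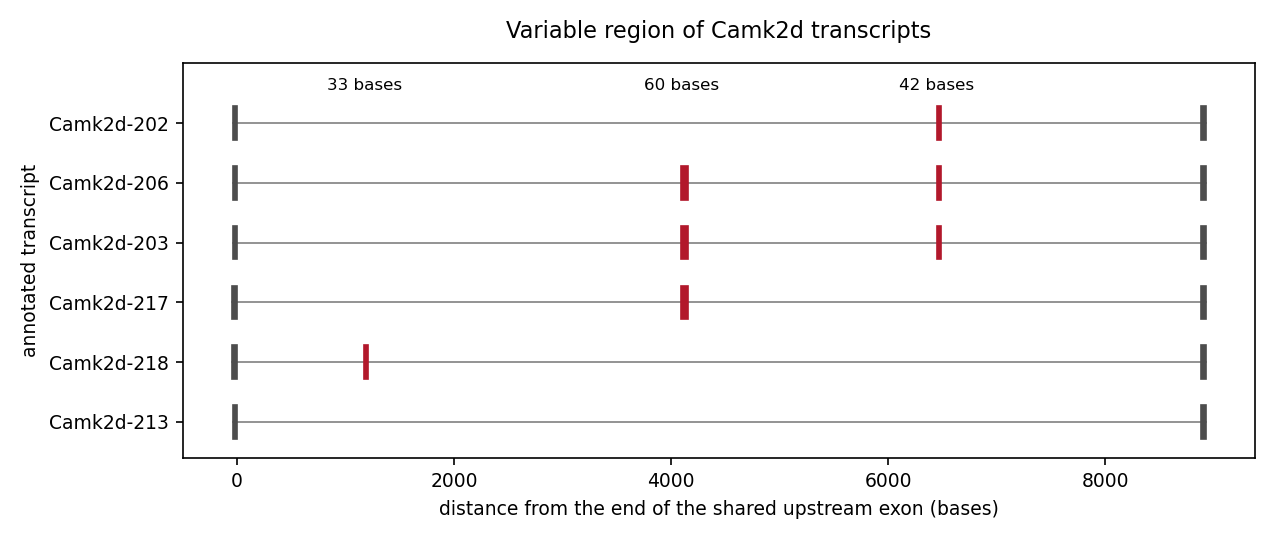
Exons of 6 annotated Camk2d transcripts between the shared flanking exons (grey), with the variable exons in red; the horizontal axis is the distance in bases from the end of the upstream flanking exon. The 42-base exon stands alone in Camk2d-202, beside the 60-base exon in Camk2d-206 and Camk2d-203, and in neither Camk2d-218, which has the 33-base exon, nor Camk2d-213, which has none.

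A second choice lies further upstream, within the coding sequence, where 2 exons of 73 bases exclude each other in the annotation. No transcript held both. Transcripts with the upstream exon of the pair carried 84.4% of the TPM of all transcripts with either in replicate 2 and 97.2% in replicate 1. Those with the downstream exon carried 15.6% in replicate 2 and 2.83% in replicate 1, from 143 and 25.1 counts. Camk2d-203 accounted for 139.8 of the 143 counts and all 25.1, and it is 1574 bases long in the deposited tables and 4169 in M21. The exons lie at chr3:126770785-126770857 and chr3:126771774-126771846 on the plus strand (GRCm38), and they are shown because 23 of their 73 bases differ, marked in capitals.
Camk2d upstream exon: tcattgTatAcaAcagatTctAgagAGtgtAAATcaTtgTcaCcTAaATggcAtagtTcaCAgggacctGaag
Camk2d downstream exon: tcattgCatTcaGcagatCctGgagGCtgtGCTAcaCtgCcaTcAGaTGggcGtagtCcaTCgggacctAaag

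Camk2g and Camk2b were spread over several transcripts in replicate 2. In replicate 1 the deposited percent gave each gene to a single transcript, but the deposited posterior means did not. Camk2g-203 carried 67.3% of its gene in replicate 2 and 100% in replicate 1. Camk2g-201, which adds inner exons of 33 and 69 bases, carried 17.4% in replicate 2 and 0% in replicate 1, and Camk2g-202, which adds the 69-base exon, carried 15.3% and 0%. Replicate 1 had 111 counts for Camk2g in all, and its posterior mean shares there were 71.5% for Camk2g-203, 13.2% for Camk2g-201 and 15.4% for Camk2g-202. For Camk2b, 6 transcripts reached 5% in replicate 2, led by the non-coding Camk2b-215 at 30% and by Camk2b-209, coding for 542 codons, at 22.6%. The other 4, Camk2b-204, Camk2b-202, Camk2b-201 and Camk2b-207, carried between 8.48% and 14.2% in replicate 2 and 0% in replicate 1. In replicate 1, Camk2b-209 was given all 14 counts, but its posterior mean share there was 9.70%, so transcript use was left unresolved.

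Of the calcineurin catalytic genes, Ppp3cb (the beta subunit, the form tied to cardiac growth in mouse) stood above Ppp3ca (the alpha subunit). They were Ppp3cb (ENSMUSG00000021816, chr14:20499364-20546573, minus strand) and Ppp3ca (ENSMUSG00000028161, chr3:136670124-136937727, plus strand). Ppp3cb reached 66.0 nuclear TPM in replicate 2 and 357 in replicate 1, from 1348 and 2183 counts. Ppp3ca reached 41.3 nuclear TPM in replicate 2 and 114 in replicate 1, from 1078 and 1221 counts. Per effective length, the Ppp3ca to Ppp3cb ratio was 0.626 (interval 0.577 to 0.678) in replicate 2 and 0.320 (0.298 to 0.344) in replicate 1, below 1 in both. Ppp3ca carried 38.5% of the summed TPM of the pair in replicate 2 and 24.3% in replicate 1 (mean share 31.4% ± 10.1, SD, n = 2), the narrowest spread of the 3 families. Ppp3cc, the gamma catalytic gene, was lower than both at 29.6 nuclear TPM in replicate 2 and 42.9 in replicate 1.

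The transcript shares of Ppp3cb were alike in the 2 libraries. Ppp3cb-205, with 14 exons and 524 codons, carried 47.2% in replicate 2 and 40.9% in replicate 1. Ppp3cb-206 carried 21.2% in replicate 2 and 28.6% in replicate 1, from 226 and 510.0 counts. It shares 11 exons with Ppp3cb-205 and ends 7803 bases earlier on the gene's strand. Its last exon, chr14:20507671-20508721 on the minus strand, is 1051 bases long where the matching exon of Ppp3cb-205 has 98 bases, so that it codes for 497 codons with another carboxyl end. A calcineurin A beta form with a different carboxyl end, read from intron sequence, is known from muscle and heart. The coding transcript Ppp3cb-202 carried 17.7% in replicate 2 and 14.9% in replicate 1, the retained-intron transcript Ppp3cb-208 carried 10.3% and 9.63%, and the coding Ppp3cb-201 carried 3.03% and 5.01%.

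Ppp3ca was divided by a 30-base exon. Ppp3ca-202, which lacks it and codes for 511 codons, carried 56.3% of the gene in replicate 2 and 99.6% in replicate 1. Ppp3ca-201, which has it and codes for 521 codons, carried 43.7% in replicate 2 and 0.390% in replicate 1, from 274 and 2.11 counts. The annotated Ppp3ca-201 is also the shorter transcript, with 2194 bases against 4758, so exon and transcript end are not separated in these shares. The exon, at chr3:136932011-136932040 on the plus strand (GRCm38, GENCODE M21), is printed in capitals with its joined bases in lower case.
Ppp3ca 30-base exon: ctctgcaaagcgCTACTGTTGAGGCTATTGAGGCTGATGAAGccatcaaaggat

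Rcan1 has 2 annotated starts, and its short form carried the larger share. The gene, Rcan1 (ENSMUSG00000022951, chr16:92391953-92470867, minus strand), stood at 79.5 nuclear TPM in replicate 2 and 35.6 in replicate 1, from 1232 and 167 counts. Rcan1-201, which starts 66069 bases downstream and codes for 198 codons, carried 64.8% of the gene's TPM in replicate 2 and 100% in replicate 1. Rcan1-202, from the upstream start, codes for 251 codons, shares the last 3 exons and carried 35.2% in replicate 2, from 452 counts. It was given 0 of 167 counts in replicate 1, where its deposited posterior mean share was 3.92% of the gene's TPM. Because the 2 transcripts share 3 exons, this 0 is an estimate and sets no upper limit on the share. The transcript from the downstream start, known as the calcineurin-responsive one, was thus the higher in both libraries, at 20.1 against 10.9 TPM in replicate 2 and 2.57 TPM against a listed 0 in replicate 1.

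The 250 bases before each start are shown because the downstream start is known to respond to NFAT, whose core recognition letters are GGAAA, read as TTTCC on the other strand. The promoters come from RefSeq (GRCm38.p6, minus strand), where 5 of the 9 genes had an entry, and capitals mark these letters. The promoter of the downstream start, chr16:92400079-92400328, held 3 matches over both strands and that of the upstream start, chr16:92466170-92466419, held 0. Among 32851 RefSeq promoters cut in the same way, 55.6% held at least 1 match and 6.39% held at least 3. The upstream promoter is richer in G and C, at 64.8%, than the downstream one, at 56.4%. A match describes the letters and was not tested as a binding site.
Rcan1 promoter at the downstream start: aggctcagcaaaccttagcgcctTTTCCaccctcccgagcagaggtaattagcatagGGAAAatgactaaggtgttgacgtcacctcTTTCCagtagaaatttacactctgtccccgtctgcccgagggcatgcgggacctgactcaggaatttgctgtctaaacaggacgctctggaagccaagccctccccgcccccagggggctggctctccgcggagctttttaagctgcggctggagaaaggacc
Rcan1 promoter at the upstream start: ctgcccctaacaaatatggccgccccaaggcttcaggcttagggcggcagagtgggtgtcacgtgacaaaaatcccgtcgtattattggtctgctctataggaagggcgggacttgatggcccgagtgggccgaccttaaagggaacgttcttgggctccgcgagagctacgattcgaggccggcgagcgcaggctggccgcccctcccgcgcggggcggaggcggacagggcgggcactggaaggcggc

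**Figure D4:**
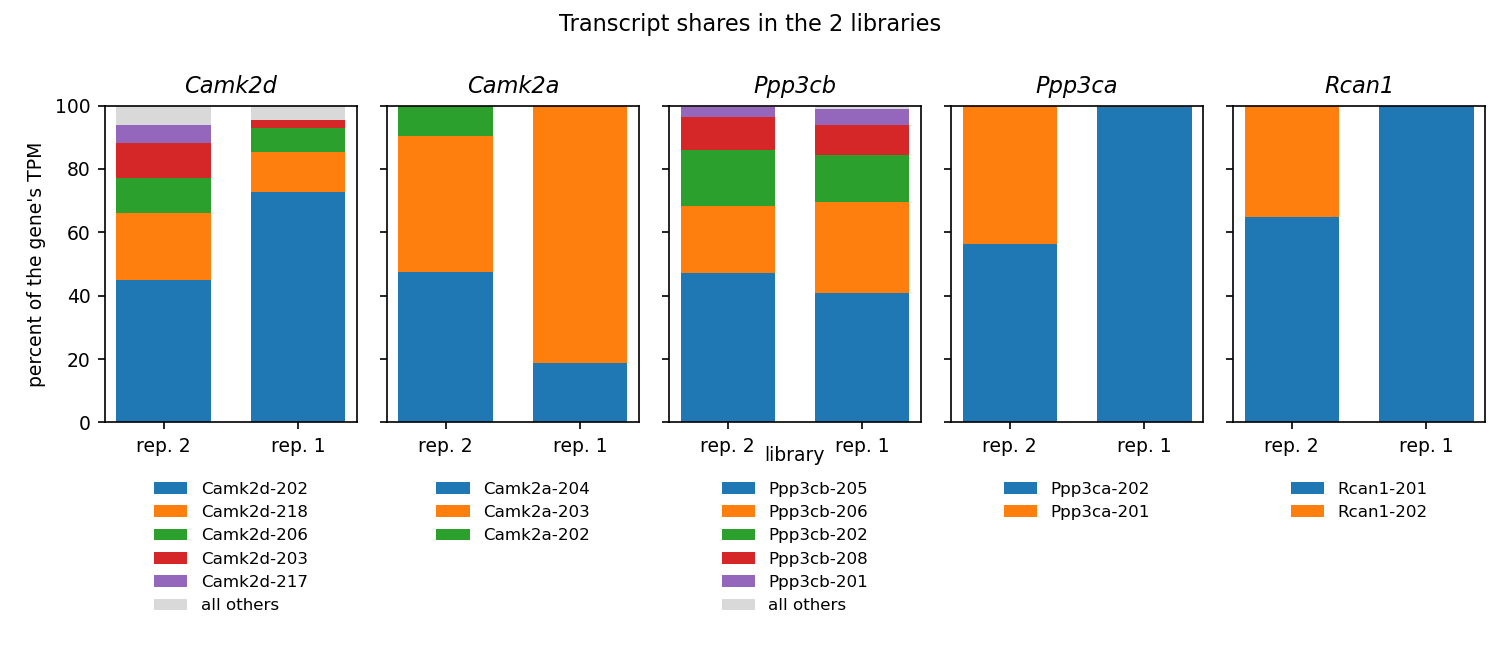
Percent of each gene's TPM carried by its transcripts in replicate 2 (left bar) and replicate 1 (right bar) for Camk2d, Camk2a, Ppp3cb, Ppp3ca and Rcan1; each bar is 1 library. The Ppp3cb bars are close, whereas Ppp3ca-201, Rcan1-202 and Camk2a-202 hold 43.7%, 35.2% and 9.50% in replicate 2 and 0.390%, 0% and 0% in replicate 1.

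Across all 9 genes, the leading transcript by share of TPM was the same in both libraries for 6: Calm2, Camk2d, Camk2g, Ppp3ca, Ppp3cb and Rcan1. The leader by this share differed for Calm3, Camk2a and Camk2b, the 3 genes richest in G and C. By counts, Calm3-201 led Calm3 in both libraries, with 1820 in replicate 2 and 35.9 in replicate 1. Camk2a-203 likewise led Camk2a by counts in both, with 781 and 144. Camk2b rested on 14 counts in replicate 1. Of 30 transcripts listed at 5% or more in either library, 24 had the same length in the deposited tables and in M21. Counts of genes on the opposite strand were few where such a gene had deposited values: Gm15551, opposite Camk2d, took 4 counts in replicate 2 and 0 in replicate 1. The gene 1810062O18Rik, opposite Ppp3cb, took 0 and 3. The genes 4930599N24Rik and Gm44327, opposite Ppp3ca, and Gm46555, opposite Rcan1, had no deposited values, so their reads are unknown.

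The difference between the libraries was then measured as a log2 ratio, replicate 2 over replicate 1, of counts scaled by the TMM method with 0.5 added, over 13182 genes with at least 20 counts. With 1 library on each side there is no p-value, and the ratios compare these libraries, not conditions. All 9 genes differed by at least 2-fold, against 66.4% of all genes tested. Of the 9, 5 were higher in replicate 2 (39.0% of all tested) and 4 were lower (27.3% of all tested). The median log2 ratio was 1.23 for the 9 genes and 0.21 for all genes tested. The call of the lower ones depended on the scaling. With total counts in place of TMM, which moves the median of all genes by 1.68 on the log2 scale, 98.3% of the calls were higher in replicate 2, against 58.8% with TMM, and 0 of the 9 genes were lower.

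The 4 genes lower in replicate 2 were Ppp3cb, Ppp3ca, Camk2d and Calm2. Ppp3cb had a log2 ratio of -2.17 (interval -2.26 to -2.07), Ppp3ca of -1.65 (-1.77 to -1.53), Camk2d of -1.54 (-1.62 to -1.46) and Calm2 of -1.33 (-1.44 to -1.23). These are the genes with the lowest GC content, between 40% in Ppp3cb and 46.5% in Camk2d. With total counts, Ppp3cb was at -0.48, and Ppp3ca at 0.03, Camk2d at 0.14 and Calm2 at 0.35 turned positive.

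The 5 genes higher in replicate 2 were Calm3, Camk2b, Camk2g, Rcan1 and Camk2a. Calm3 had a log2 ratio of 3.65 (interval 3.26 to 4.09), Camk2b of 2.08 (1.34 to 3.03), Camk2g of 1.49 (1.21 to 1.80), Rcan1 of 1.41 (1.18 to 1.65) and Camk2a of 1.23 (0.99 to 1.5). Their GC content ran between 51.5% in Camk2g and 58.1% in Calm3, above that of all 4 genes on the other side. Across the 9 genes the ratio followed GC content with a Pearson r of 0.95 and a Spearman rho of 0.88, and across 13115 tested genes with 0.85 and 0.90. These are descriptions over genes that share the same 2 libraries, and genes are not independent replicates.

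When the median ratio of genes of like GC content was taken off, 2 of the 9 genes remained past 2-fold, against 27.6% of 13115 genes. Both were lower in replicate 2, Camk2a at -1.44 and Camk2b at -1.41, where they had been higher before. The GC content used weights a gene's transcripts by their TPM in these 2 libraries, and the transcript shares of both genes differed between them. Of the other 7, Camk2d lay at -0.84, Ppp3ca at -0.68, Calm3 at -0.57, Ppp3cb at -0.18, Calm2 at 0.17, Rcan1 at 0.30 and Camk2g at 0.64. The same adjustment, drawn from these same 2 libraries, was applied to the levels of replicate 1. It brought the Camk2d and Ppp3ca shares close to those of replicate 2. Camk2d held 57.4% of the kinase family in replicate 2 and 57.9% in the adjusted replicate 1, and Ppp3ca held 38.5% of the calcineurin pair in replicate 2 and 39.5% in the adjusted replicate 1. The order of the 4 kinase genes stayed as it was, with Camk2a at 29.7%, Camk2g at 7.33% and Camk2b at 5% in the adjusted replicate 1. For the calmodulins the order turned: Calm2 held 65.1% of the pair in replicate 2 and 34.0% in the adjusted replicate 1.

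**Figure D5:**
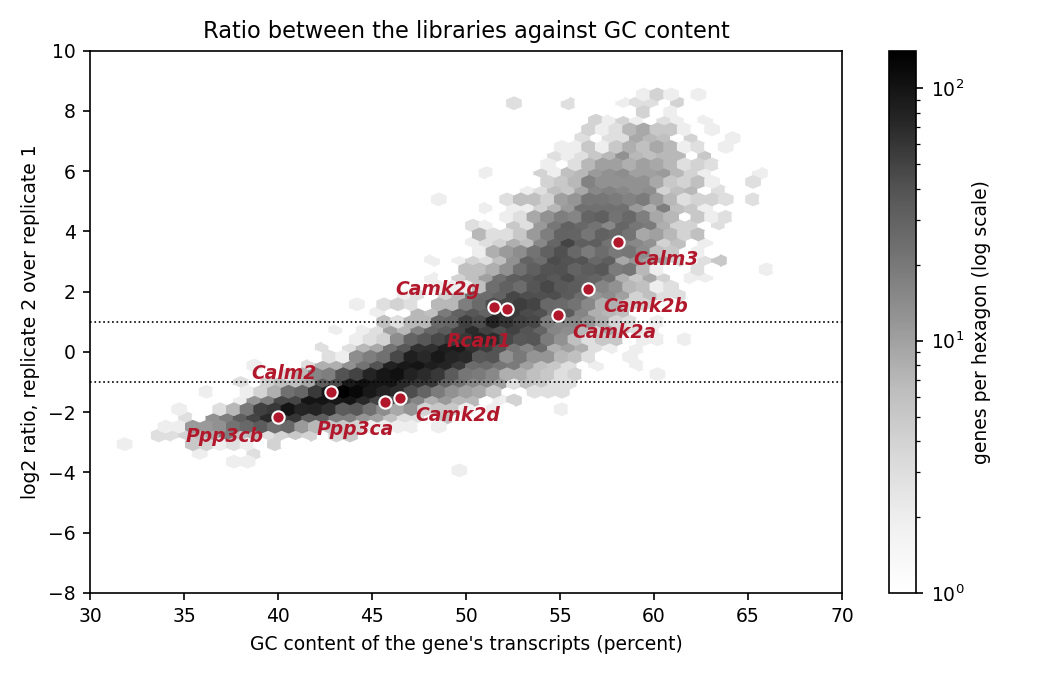
Log2 ratio of counts, replicate 2 over replicate 1, against the GC content of each gene's transcripts in percent; hexagons count genes on a log grey scale, red points are the 9 genes and dotted lines mark 2-fold. The 4 genes with a GC content of 46.5% or less lie below the lower line and the 5 at 51.5% or more lie above the upper line, along the course of the 13115 genes, of which 11 fall outside the plotted window.

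Other CaM kinase genes were sparser than Camk2d. Of 10 CaM kinase partners listed, 4 reached 1 nuclear TPM in both libraries. Here and in the lists that follow, the 3 genes named are those of highest mean plain TPM, which gives replicate 2 more weight, and their levels are in nuclear TPM. Camk1, a kinase switched on by CaM kinase kinases, led at 79.8 nuclear TPM in replicate 2 and 33.4 in replicate 1. Camk2n1, an inhibitor of CaM kinase II, stood at 12.2 in replicate 2 and 24.4 in replicate 1. Pnck, a kinase of the CaM kinase I family, stood at 9.59 nuclear TPM in replicate 2 and was listed at 0 in replicate 1. Camkv had no count in either library. Among the 7 with enough counts, 4 were at least 2-fold higher in replicate 2 and 1 was lower (39.0% and 27.3% of all tested). Their median log2 ratio was 1.42, against 0.21 for all genes tested. GC content was 46.9% in Camk1d and between 53.1% in Camkk2 and 55.6% in Pnck in the others. The part of GC content in this median was not tested.

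The calcineurin partners were better represented, with 8 of 10 at 1 nuclear TPM in both libraries. Myoz2, which tethers calcineurin at the Z disc, stood at 1512 nuclear TPM in replicate 2 and 898 in replicate 1. Rcan2, a relative of Rcan1, stood at 317 in replicate 2 and 947 in replicate 1, above Rcan1 in both. Fkbp1a, the immunophilin bound by tacrolimus, stood at 166 nuclear TPM in replicate 2 and 228 in replicate 1. Ppp3r1, the regulatory subunit that pairs with Ppp3ca and Ppp3cb, was not among the 3 highest by mean plain TPM but is given as their partner: its nuclear TPM stood at 65.7 in replicate 2 and 378 in replicate 1. Ppp3cb itself stood at 66.0 and 357. Ppp3r2, the testis relative of Ppp3r1, had no count. Of 9 with enough counts, 2 were at least 2-fold higher in replicate 2 and 3 lower (39.0% and 27.3% of all tested). Their median log2 ratio was -0.22.

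Of the 5 NFAT factors, 4 reached 1 nuclear TPM in both libraries. The highest was Nfat5, the family member that calcineurin does not control directly, at 17.9 nuclear TPM in replicate 2 and 70.1 in replicate 1. Nfatc3, a calcineurin target, followed at 12.7 in replicate 2 and 36 in replicate 1, and Nfatc1, another, at 10.7 and 9.70. All 5 were below Rcan1 in replicate 2, where it stood at 79.5, but Nfat5 and Nfatc3 were above its 35.6 in replicate 1. Among the 5, 2 were at least 2-fold higher in replicate 2 and 2 lower (39.0% and 27.3% of all tested). Their median log2 ratio was 0.35.

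Calmodulin-binding genes and kinase substrates complete the pathway. Of 12 calmodulin binders and buffers, 7 reached 1 nuclear TPM in both libraries. Mylk3, the cardiac myosin light chain kinase, stood at 539.5 nuclear TPM in replicate 2 and 399.5 in replicate 1. Pcp4l1 stood at 380.5 in replicate 2 and 183 in replicate 1, and Camta1, a calmodulin-binding transcription activator, at 98.3 and 411. The order was not the same in the 2 libraries: Mylk3 was the highest in replicate 2, whereas in replicate 1 Camta1 and Strn3, a calmodulin-binding striatin, were above it. Strn3 stood at 80.7 nuclear TPM in replicate 2 and 439 in replicate 1. Of 8 with enough counts, 3 were at least 2-fold higher in replicate 2 and 3 lower (39.0% and 27.3% of all tested). Their median log2 ratio was 0.31. All 6 listed substrates of CaM kinase II were present. Pln, the brake on the calcium pump, stood at 6039 nuclear TPM in replicate 2 and 29345 in replicate 1. The calcium release channel Ryr2 stood at 279.9 in replicate 2 and 357 in replicate 1, and the calcium channel subunit Cacna1c at 100.2 and 70.5. Among the 6, 1 was at least 2-fold higher in replicate 2 and 1 lower (39.0% and 27.3% of all tested). Their median log2 ratio was 0.22.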

How the data were processed

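Expected counts and TPM per gene and transcript, and each transcript's percent of its gene, were deposited by the authors, per the file headers. The deposited descriptions name assembly mm10 and annotation M4; aligner, counter, versions and strand setting were not named in the labels or headers used here. The labels give a size range of 350 to 450. Symbols, exons and coding sequences came from GENCODE M21 on the same assembly, promoters from RefSeq; 42462 of 43346 genes had a symbol. Nuclear TPM left out mitochondrial genes and 11 nuclear copies, found with blastn 2.17.0 (at least 95% identity over 90% of the length). Depths were 19685821 counts in replicate 2 and 22775991 in replicate 1, so that 3 counts, the limit a count of 0 allows, are 0.152 and 0.132 CPM. Counts were rounded and scaled with edgeR 4.0.16 (TMM), with DESeq2 1.42.0 as an alternative; a gene past 2-fold was called, without p-value. The GC trend was the median ratio in 50 bins of GC content. The ratio step was tested on simulated counts drawn from the pooled profile of both libraries. These held no GC trend and no difference in mitochondrial share. The simulation therefore cannot show how the ratios behave under such differences. Other scalings, filters, added counts, posterior means, the GC trend and each library left out were the alternatives. Named were all members, their transcripts of at least 5% in either library and, from each partner list, the 3 highest by mean TPM and those with no count. The summed level of the neuron and Schwann cell markers is not reported here. Members and lists were chosen with earlier results of these data known. Both libraries come from 1 animal, so a mean ± SD over them covers technical spread. Python 3.11.15, numpy 2.4.6, pandas 2.3.3, scipy 1.17.1 and R 4.3.3 were used.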

Additional observations from a re-analysis of the deposited data

How the results depend on the processing

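No paired analysis was possible because both libraries come from 1 mouse and form 1 group. Leaving out a library gave Camk2d shares of the kinase family between 57.4% and 91.1% (mean of both 74.3%), Calm2 shares between 65.1% and 96.4%, Ppp3ca shares between 24.3% and 38.5%, and Camk2d-202 shares of Camk2d between 44.8% and 72.7%. With replicate 1 adjusted for GC content, the mean Calm2 share was 49.5%, against 80.8% without; the Camk2d share was 57.7% and the Ppp3ca share 39.0%. Counting transcripts with the first start codon alone, chosen after the data were seen, gave a Camk2d share of 74.8%. Members past 2-fold numbered 9 under 5 other settings (DESeq2 size factors, nuclear totals, no filter, 2 counts added, posterior means), 5 with total counts and 2 with the GC trend removed. Over all genes, 3621 were past 2-fold with the GC trend removed, against 8747. Total counts reversed Calm2 (0.35), Ppp3ca (0.03) and Camk2d (0.14); removing the GC trend reversed Calm2 (0.17), Camk2a (-1.44), Camk2b (-1.41) and Calm3 (-0.57). Why these moved was not tested beyond the settings named. Depth limits Camk2b (14 counts) and Calm3 (52.0 counts) in replicate 1 most.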
